A study of Homo sapiens with 15 samples.

Results

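The 35 genes described here encode the aminoacyl-tRNA synthetases of the human cell. They were taken from a table of 59608 genes by symbol, 19 for the cytosolic enzymes and 16, whose symbols end in ARS2, for the mitochondrial enzymes. The rule used symbols and no measured value, although the family was picked with earlier results of these data known. The RNA came from MDA-MB-231, an established human breast cancer cell line of mesenchymal character, grown in 2D on dishes. Cells received either DMSO at 0.1%, the vehicle, or ZJ-101 at 0.5, 5, 50 or 500 nM for 6 h, with 3 biological replicates per group and 15 libraries in all. ZJ-101 is a simplified synthetic analog of superstolide A, a marine sponge product with anticancer activity, and each dose was compared with DMSO to find the genes whose RNA differed early in the treatment. All groups were the same line, so the 5 groups differ by dose alone as far as the labels state.

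Each library held between 12415519 and 15284762 reads on genes, and the authors divided each library's counts by its size factor, which gave the normalized counts used throughout. Transcripts of the mitochondrial genome took between 0.889% and 2.06% of the reads, with overlapping ranges of 0.942% to 1.58% in DMSO and 1.02% to 1.83% at 500 nM. VIM, CD44, EGFR, CAV1 and AXL, set as markers high in this line, had means of 4641 to 14336 normalized counts in DMSO. Of the markers set as low, the estrogen receptor gene ESR1 was listed at 0 and the progesterone receptor gene PGR averaged 14.0. The other markers set as low were detected, with averages of 196 normalized counts for CDH1, 293 for EPCAM and 1226 for ERBB2. No other line was measured for comparison. Replicate 2 at 0.5 nM stood apart, with a chi-square of its reads, divided by the degrees of freedom, of 10.2 and 15.1 against the other replicates of its group, where the remaining pairs had 1.96 to 5.81. Without it, the members called below were called again, and LARS1 was called in addition at 5 nM, MARS2 at 50 nM, IARS1 at 500 nM and VARS1 from 5 to 50 nM, all with limma. That fit also called more of all genes, at 500 nM 3098 of 13563 against 2409 of 13561 with all libraries.

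An aminoacyl-tRNA synthetase joins an amino acid to its tRNA and so sets the genetic code in the 2 places where a human cell makes protein, the cytosol and the mitochondrial matrix. Nearly every amino acid has a cytosolic and a separate mitochondrial enzyme, both encoded in the nucleus, but glycine (GARS1) and lysine (KARS1) are served in both compartments by a single gene. Several cytosolic enzymes form the multisynthetase complex around 3 scaffold proteins. When amino acids run short or the endoplasmic reticulum or the mitochondria are stressed, kinases phosphorylate eIF2alpha, ATF4 is translated, and ATF4 with a C/EBP partner activates amino acid transporters, biosynthetic enzymes and many cytosolic synthetase genes through the amino acid response element, whereas the mitochondrial synthetases are not known as a block of ATF4 targets.

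Matches to the letters of this element were more frequent in the cytosolic promoters. The sequences are printed because ATF4 control is the reason for setting the cytosolic list beside the mitochondrial one. Binding of ATF4 was not measured. The windows searched ran from 250 bases before to 50 bases after each RefSeq start on GRCh38.p14, on both strands, and 30 of the 35 genes had at least 1 window. LARS1, VARS1, YARS1, AARS2 and VARS2 were not among them. The letters TGATGNAA, which stand for the amino acid response element, were found in 7 of 16 cytosolic genes (43.8%) and in 1 of 14 mitochondrial genes (7.14%). They were found in 4.46% of all 27305 genes with a window and in 2.69% of the 10029 of these that were tested for expression. All 7 cytosolic matches lay among the 10 searched genes that are known as ATF4 targets, and 0 of the 6 other cytosolic genes had one. The list of targets comes from general knowledge, so this overlap is a description and no independent support. Each line gives the coding strand of a gene, 5′ to 3′, with the matched letters in capitals.
AARS1, chr16:70289675-70289704, minus strand: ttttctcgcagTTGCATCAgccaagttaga
CARS1, chr11:3057407-3057436, minus strand: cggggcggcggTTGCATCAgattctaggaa
GARS1, chr7:30594834-30594863, plus strand: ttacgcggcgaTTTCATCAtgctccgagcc
IARS1, chr9:92293692-92293721, minus strand: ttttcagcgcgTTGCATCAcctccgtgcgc
MARS1, chr12:57488053-57488082, plus strand: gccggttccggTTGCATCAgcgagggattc
NARS1, chr18:57621804-57621833, minus strand: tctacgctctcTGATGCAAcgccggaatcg
TARS1, chr5:33440956-33440985, plus strand: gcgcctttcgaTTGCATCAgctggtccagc
YARS2, chr12:32756076-32756105, minus strand: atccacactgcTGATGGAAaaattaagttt
In AARS1, CARS1, IARS1, MARS1 and TARS1 the capitals are the same 8 letters read on the opposite strand, and in NARS1 they stand in the forward direction. In CARS1, MARS1 and TARS1 the match began within 4 bases of a start, while in AARS1 it began 187 bases before it and in YARS2, the mitochondrial tyrosyl enzyme, 197 bases before it. The letters GAANNTTC, which occur in heat-shock elements, were found in 3 of the 30 genes (10%), GARS1, HARS2 and NARS1, against 8.21% of all genes and 6.57% of those tested for expression.

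In DMSO, 16 of the 19 cytosolic genes had a higher level per transcript length than every mitochondrial gene except IARS2. On a scale of normalized counts per kilobase of the MANE transcript, TARS1 was highest with 1627 ± 25.9 (SD, n = 3 DMSO libraries), followed by KARS1 with 1376 ± 24.2 and IARS1 with 1109 ± 19.5. The next 8 cytosolic genes, QARS1, FARSA, SARS1, MARS1, GARS1, YARS1, RARS1 and WARS1, lay between 983 and 1030 with SDs of 9.84 to 39.3. The order of these neighbours was not tested. IARS2, the mitochondrial isoleucyl enzyme, was the exception among the mitochondrial genes with 959 ± 9.01. It stood above NARS1, HARS1, EPRS1, AARS1 and LARS1, and the second mitochondrial gene, CARS2, had 323 ± 25.3. The other measured mitochondrial genes lay between 43.4 for AARS2 and 230 for YARS2, apart from SARS2 at 2.43 and VARS2 at 0. FARSB, which encodes the second subunit of the cytosolic phenylalanyl enzyme, had 168 ± 1.54 per kilobase and ranked 22nd of the 35, although its partner subunit FARSA had 1020 ± 9.84, and the MANE transcript of FARSB is 6761 bases long against 1811 for FARSA. In normalized counts without division by length the subunits were closer, with 1127 to 1147 for FARSB and 1831 to 1866 for FARSA in DMSO. By these counts CARS1, with 86.8 per kilobase, ranked 29th and VARS1, with 17.0, 33rd, so both also lay among the mitochondrial genes. CARS1 and VARS1 have further copies on alternate contigs of the genome, and the part of these copies in their low values was not tested.

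**Figure D1:**
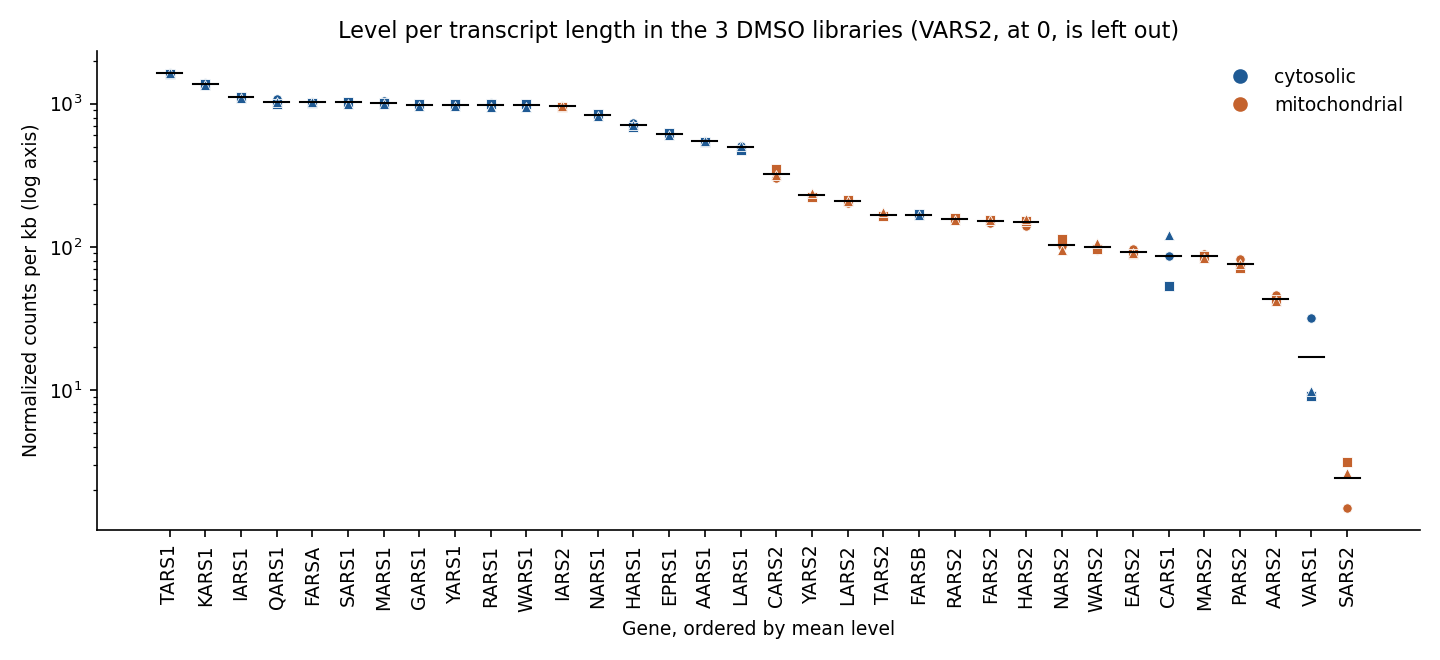
Normalized counts per kilobase of transcript on a log axis for the 34 synthetase genes above 0, ordered by their mean, in the 3 DMSO libraries (circle, square and triangle for replicates 1, 2 and 3, bars for means). Cytosolic genes (blue) fill the left side from TARS1 at 1627, with IARS2 at 959 the one mitochondrial gene (orange) among them, while the cytosolic genes FARSB, CARS1 and VARS1 lie on the right among the mitochondrial genes. CARS1 and VARS1 have further copies on alternate contigs of the genome.

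Of the 35 genes, 33 reached an average of 10 normalized counts across the 15 libraries and entered the test, all 19 cytosolic and 14 of 16 mitochondrial. SARS2 lay between 2.13 and 8.73 normalized counts in every library and VARS2 was listed at 0 in all 15. For SARS2, 48.2% of the exon bases are shared with another annotated gene on the same strand, and for VARS2 63% are, and VARS2 has 5 further copies on alternate contigs of the genome. The part of this sharing in the low values was not tested. EEF1G, an abundant subunit of the elongation factor that delivers charged tRNA, was also listed at 0 in all 15 libraries.

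VARS1 and CARS1, the cytosolic valyl and cysteinyl enzymes, passed the filter but varied widely between replicates of a group. VARS1 had 132, 37.4 and 40.6 normalized counts in the DMSO libraries, 36.1, 39.0 and 439 at 0.5 nM, and 449, 27.6 and 493 at 5 nM. At 50 nM it had 10.7, 18.6 and 30.8, and at 500 nM 76.4, 483 and 27.4. It was thus above 400 in 4 libraries from 3 different doses and below 140 in the other 11. Its spread within groups, an SD of 1.75 on the log2 scale, was larger than that of 99.8% of the 911 genes of like level. CARS1 ranged from 145 to 513 with an SD of 0.53, larger than that of 99.5% of the 1209 genes of like level. VARS1 has 4 copies and CARS1 has 1 copy on the 261 alternate contigs of the reference genome, and among the 35 genes only CARS1, VARS1 and VARS2 have any. The part of these copies in the spread or in the level was not tested. The other 17 cytosolic genes had SDs between 0.03 and 0.07.

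**Figure D2:**
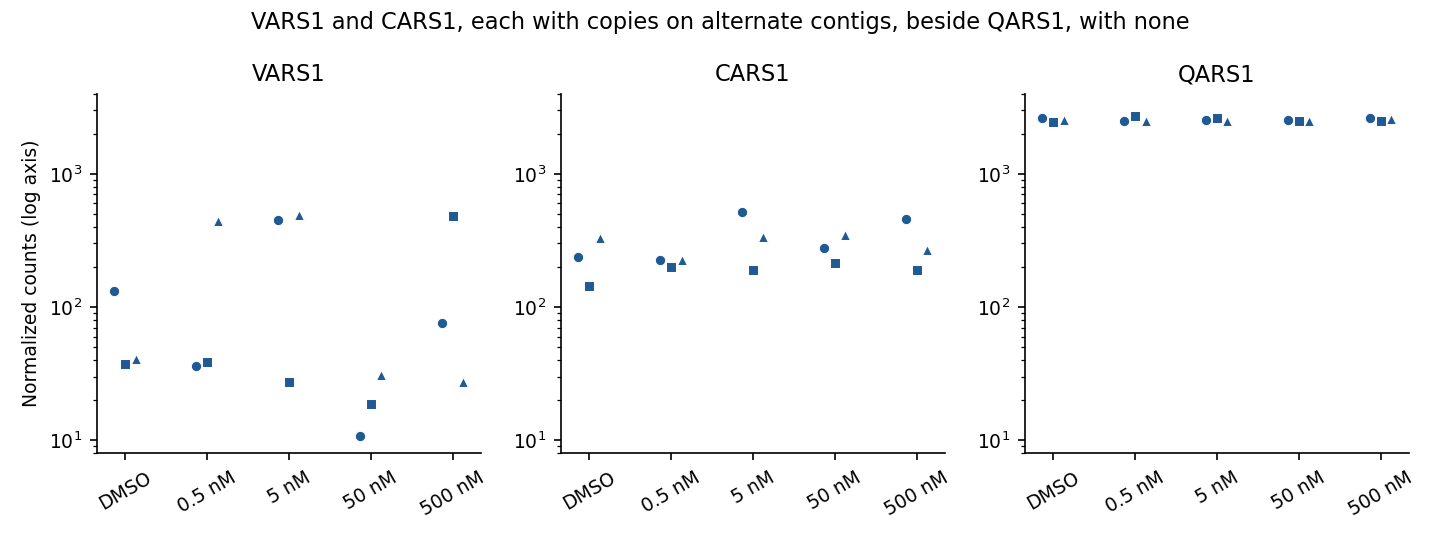
Normalized counts on a log axis in each of the 15 libraries for VARS1, CARS1 and, for scale, QARS1, which has no copy on an alternate contig (circle, square and triangle for replicates 1, 2 and 3). VARS1 runs from 10.7 to 493 and CARS1 from 145 to 513 with no order by dose, while QARS1 stays between 2426 and 2690.

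At 500 nM, the highest dose, the transcripts of MARS2 and EARS2, the mitochondrial methionyl and glutamyl enzymes, were higher than in DMSO, and those of the other 31 tested genes did not pass the test. In bulk RNA, less or more RNA per cell and a different share of cells that make it cannot be told apart. MARS2 rose 1.35-fold and EARS2 1.22-fold, and 0 of the 19 cytosolic genes were past the threshold. The share of members called, 2 of 33, stands beside 17.8% of all 13561 genes tested, of which 7.69% were higher and 10.1% lower. The share of synthetase genes called was thus below the share of all genes called at this dose.

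MARS2, which charges the methionine tRNA of mitochondria, lies on chromosome 2 at chr2:197705369-197708395 (GRCh38, plus strand) and overlaps no other annotated exon. It had 268, 262 and 255 normalized counts in DMSO, 251, 292 and 264 at 0.5 nM, and 306, 285 and 244 at 5 nM. At 50 nM it had 316, 295 and 328, and at 500 nM 355, 371 and 337. Every library at 50 and at 500 nM was above every DMSO library, and the groups at 0.5 and 5 nM overlapped those of DMSO. The log2 fold change at 500 nM was 0.44 with a standard error of 0.09 and a 95% interval of 0.26 to 0.61 (adjusted p = 0.00119, limma with Benjamini-Hochberg adjustment over all genes tested). At 50 nM it was 0.26 with a standard error of 0.09, and limma's adjusted p of 0.0911 missed the threshold of 0.05.

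EARS2 lies on the minus strand at chr16:23520754-23557731, and 3.06% of its exon bases are shared with other genes. It had 502, 466 and 468 normalized counts in DMSO, 481, 415 and 434 at 0.5 nM, and 420, 455 and 460 at 5 nM. At 50 nM it had 550, 544 and 514, and at 500 nM 605, 560 and 583. The 3 libraries at 5 nM were all below DMSO, those at 50 and 500 nM were all above it, and those at 0.5 nM overlapped. The log2 fold change at 500 nM was 0.28 with a standard error of 0.07 and a 95% interval of 0.15 to 0.42 (adjusted p = 0.00451, limma with Benjamini-Hochberg adjustment).

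Their cytosolic partners did not pass the test. MARS1, which charges the methionine tRNAs of the cytosol, had 2903, 2829 and 2774 normalized counts in DMSO and 3008, 2895 and 3011 at 500 nM, a log2 fold change of 0.07 with a 95% interval of -0.02 to 0.15 (limma, adjusted p = 0.291). EPRS1, which charges both glutamate and proline tRNA, averaged 2980 ± 53.3 (SD, n = 3) in DMSO and 3066 ± 39.2 at 500 nM, a log2 fold change of 0.04 with a 95% interval of -0.07 to 0.15 (limma, adjusted p = 0.656). The MARS1 to MARS2 ratio within a library was 3.43, 3.43 and 3.44 on the log2 scale in DMSO and 3.08, 2.96 and 3.15 at 500 nM. The EPRS1 to EARS2 ratio was 2.57, 2.70 and 2.64 in DMSO and 2.35, 2.43 and 2.40 at 500 nM. Both ratios were lower in all 3 libraries at 500 nM than in any DMSO library. In the other 10 amino acids for which a single cytosolic and a single mitochondrial gene were tested, the mean log2 ratio differed between 500 nM and DMSO by -0.10 for alanine to 0.19 for cysteine, whose cytosolic gene is CARS1. No ratio was formed for phenylalanine, whose cytosolic enzyme has 2 subunit genes. PARS2, the mitochondrial prolyl enzyme, whose cytosolic counterpart is also EPRS1, ranged from 155 to 205 normalized counts and had a log2 fold change of 0.00 at 500 nM with an interval of -0.23 to 0.24.

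**Figure D3:**
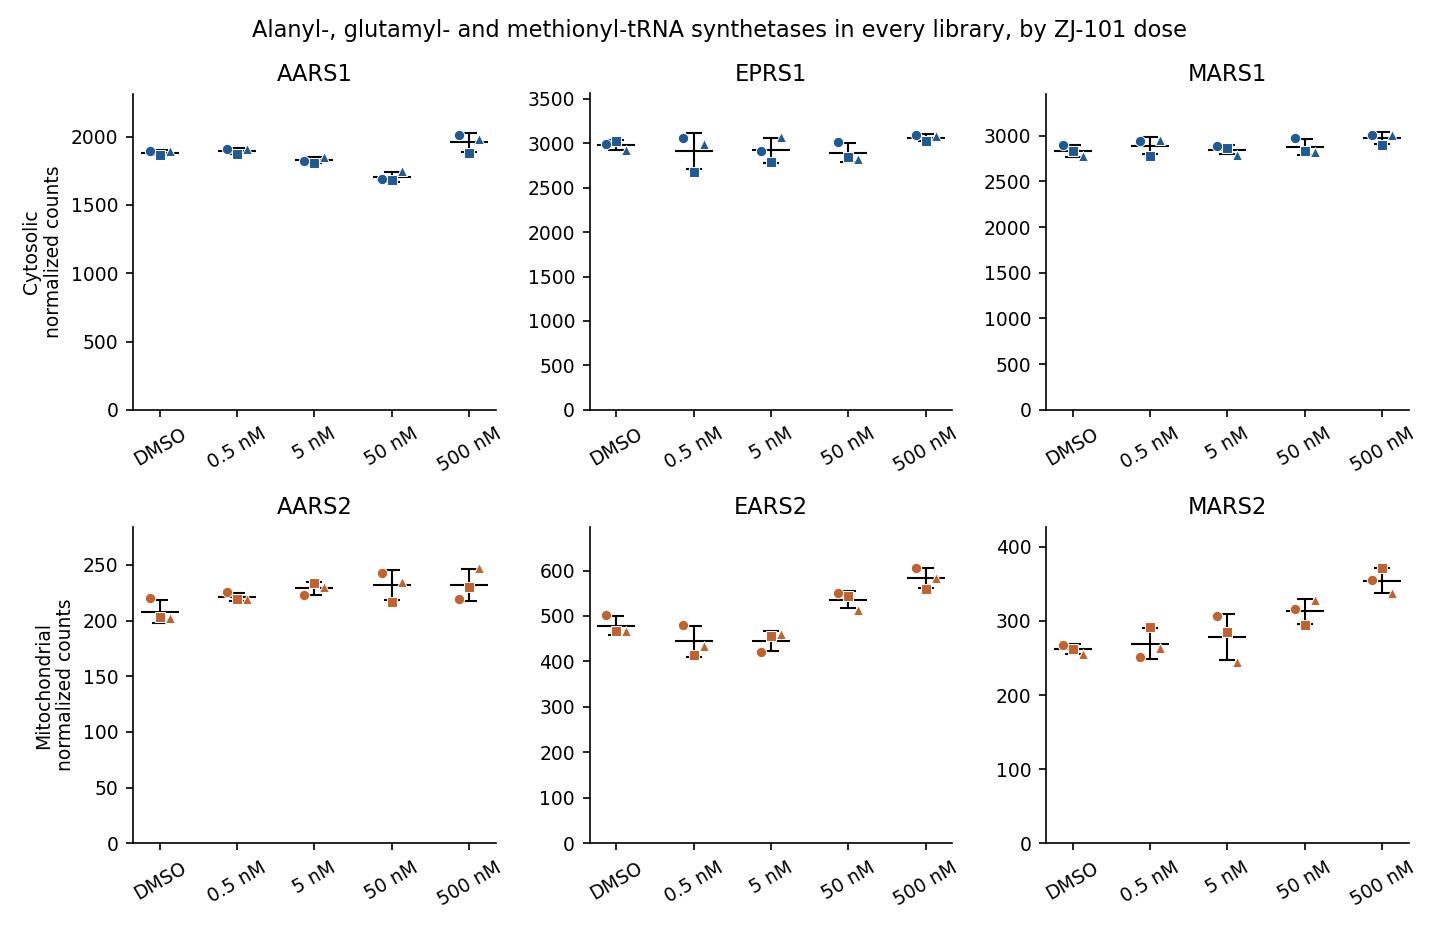
Normalized counts in each library by ZJ-101 dose for AARS1, EPRS1 and MARS1 (upper row, cytosolic) and AARS2, EARS2 and MARS2 (lower row, mitochondrial), with replicates 1, 2 and 3 as circle, square and triangle and the mean ± SD (n = 3) as black bars. EARS2 and MARS2 lie above DMSO in all libraries at 50 and 500 nM, and AARS1 dips to 1706 ± 36.8 at 50 nM.

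AARS1, the cytosolic alanyl enzyme and an ATF4 target, was the one member called at 50 nM, and it was lower than in DMSO. It lies on the minus strand at chr16:70251983-70289707, and its response element window is printed above. It had 1895, 1865 and 1892 normalized counts in DMSO, 1910, 1873 and 1911 at 0.5 nM, and 1822, 1810 and 1852 at 5 nM. At 50 nM it had 1687, 1683 and 1749, and at 500 nM 2014, 1879 and 1984. The libraries at 5 and 50 nM were all below DMSO, and those at 0.5 and 500 nM overlapped it. The log2 fold change at 50 nM was -0.14 with a standard error of 0.04 and a 95% interval of -0.23 to -0.06 (adjusted p = 0.036, limma with Benjamini-Hochberg adjustment), a level 0.91 times that of DMSO. At 500 nM it was 0.06 with an interval of -0.03 to 0.14. The call at 50 nM was lost in 8 of 25 alternatives, among them each fit that left out 1 of the 3 DMSO libraries (adjusted p 0.0893 to 0.117), while the log2 fold change stayed between -0.16 and -0.13. AARS1 had an unusually narrow spread, an SD of 0.03 on the log2 scale, and 1.1% of the 999 genes of like level had a smaller one. The mitochondrial partner AARS2 averaged 208 ± 10.1 (SD, n = 3) normalized counts in DMSO and 232 ± 14.2 at 500 nM, with a log2 fold change of 0.15 and an interval of -0.01 to 0.31.

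At the lower doses 0 or 1 members passed the test. At 0.5 nM, where 1.17% of all genes were called, limma called 0 of 33 members, 1 was higher and 1 lower at an unadjusted p under 0.05, and edgeR and DESeq2 on the recovered reads also called 0. That background of 159 genes was itself unsteady, with 19, 25 or 39 genes called without DMSO replicate 1, 2 or 3, 84 without replicate 1 at 0.5 nM and 388 without replicate 3 at 0.5 nM, and the count of members stayed at 0 in each of these fits. At 5 nM, where 2.18% of all genes were called, limma and edgeR called 0, 2 were higher at an unadjusted p under 0.05, and DESeq2 called 1, LARS1, the leucyl enzyme. LARS1 had 2406, 2264 and 2398 normalized counts in DMSO and 2629, 2604 and 2756 at 5 nM, with no overlap between the groups. Its log2 fold change at 5 nM was 0.18 with an interval of 0.07 to 0.28 (limma, adjusted p = 0.0747), and at 500 nM it was 0.10 with an interval of -0.00 to 0.20. LARS1 is named here after its values were seen. With 1 library left out, the 295 genes called at 5 nM became 113 (without DMSO replicate 1) to 623 (without replicate 2 at 0.5 nM). At 50 nM, 6.00% of all genes were called and 1 of 33 members, AARS1, and the 814 genes became 560 (without replicate 1 at 50 nM) to 1277 (without replicate 2 at 0.5 nM).

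**Figure D4:**
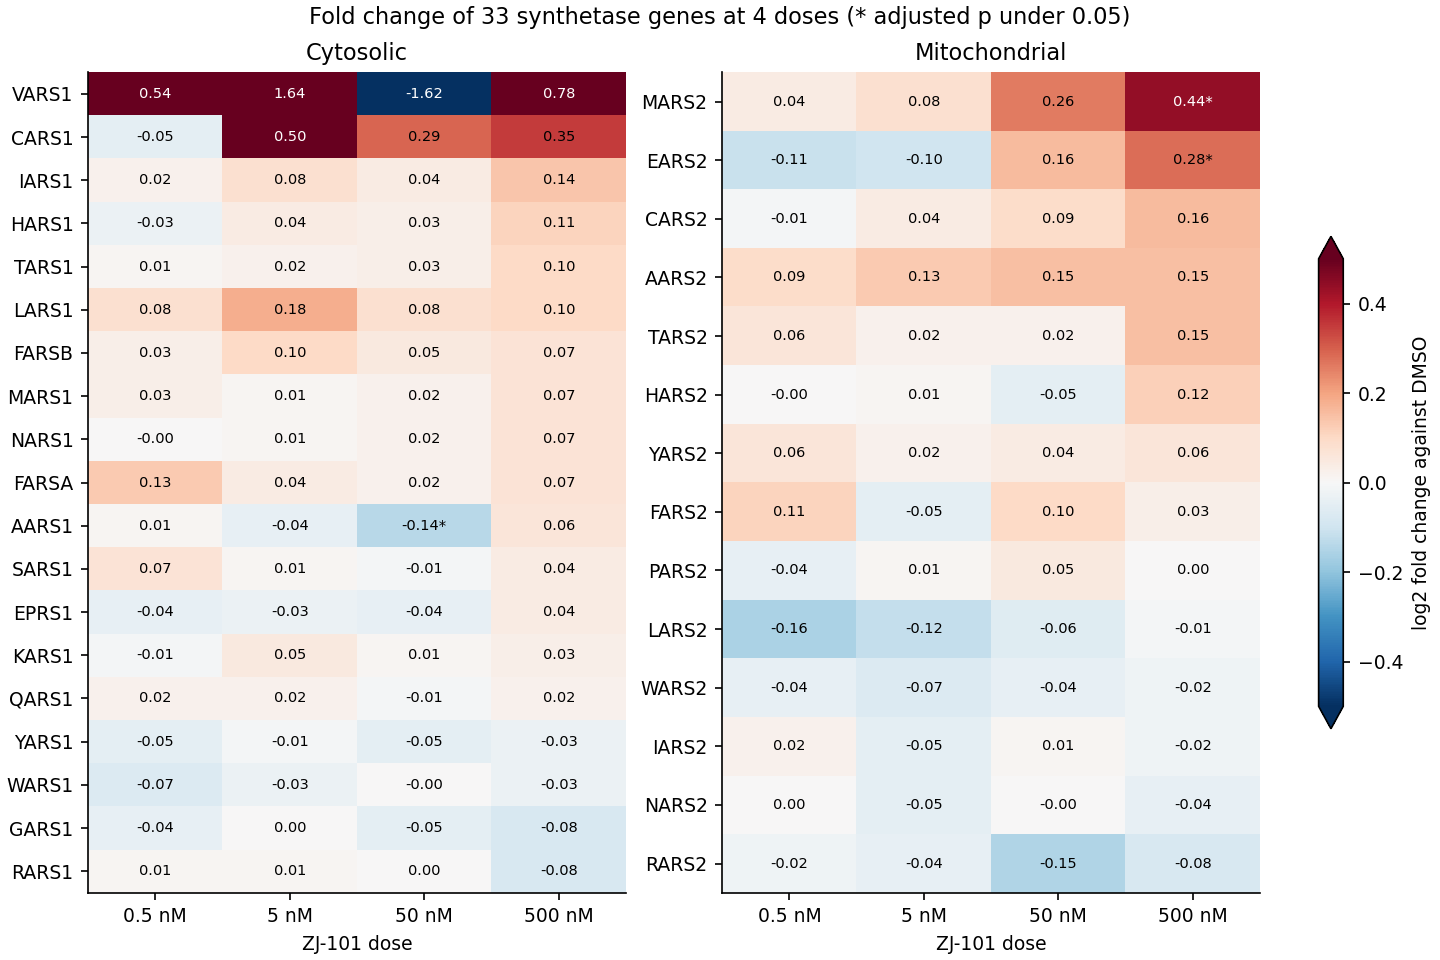
Log2 fold change against DMSO of the 33 tested genes (rows) at each ZJ-101 dose (columns), with cytosolic genes on the left and mitochondrial genes on the right, ordered by the value at 500 nM, on a colour scale that ends at 0.5. Asterisks mark MARS2 at 0.44 and EARS2 at 0.28 at 500 nM and AARS1 at -0.14 at 50 nM, and most other cells, apart from the VARS1 and CARS1 rows, are close to 0.

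The steps between doses compare means without those of DMSO, although the DMSO libraries share in the estimate of the spread. From 5 to 50 nM, where 5.01% of all genes were called, 1 of 33 members passed, EARS2, with a log2 difference of 0.27 and an interval of 0.13 to 0.40 (limma, adjusted p = 0.0207). This call was lost without replicate 1 at 5 nM (adjusted p = 0.107) and without replicate 1 or 2 at 50 nM (0.0922 and 0.0616). MARS2 differed by 0.17 over this step with an interval of -0.01 to 0.35. From 50 to 500 nM, where 2.28% of all genes were called, 1 of 33 passed, AARS1, with a log2 difference of 0.20 and an interval of 0.12 to 0.28 (limma, adjusted p = 0.00945). That call was lost without replicate 1 or replicate 3 at 500 nM (adjusted p 0.0521 and 0.0582). AARS1 thus had its lowest mean at 50 nM, while MARS2 and EARS2 had their highest at 500 nM.

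Fitted over all doses at once, as a slope per 10-fold step with DMSO placed 1 step below 0.5 nM, MARS2 rose by 0.11 on the log2 scale per step (adjusted p = 0.000496) and EARS2 by 0.08 (adjusted p = 0.00692, both limma with Benjamini-Hochberg adjustment). They were the 2 members of 33 that passed, beside 17.6% of all genes, of which 8.23% rose and 9.33% fell. The slopes of 0 of the 19 cytosolic genes passed with limma or edgeR, 3 were above 0 at an unadjusted p under 0.05, and DESeq2 called 1, TARS1. Both MARS2 and EARS2 passed the test at 500 nM in all 25 alternatives computed and by slope in all 24.

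Among the cytosolic genes, log2 fold changes at 500 nM ran from -0.08 to 0.14 apart from CARS1, at 0.35 with an interval of -0.35 to 1.04, and VARS1, at 0.78 with an interval of -1.49 to 3.04. HARS1, IARS1 and TARS1 were higher at an unadjusted p under 0.05, with log2 fold changes of 0.11, 0.14 and 0.10, but 0 of 19 passed the adjusted test in limma, edgeR or DESeq2. For 17 of the 17 cytosolic genes other than CARS1 and VARS1, the 95% interval lay within 1.2-fold of DMSO in both directions. The lowest values were -0.08 for GARS1, with an interval of -0.17 to 0.01, and -0.08 for RARS1, with an interval of -0.19 to 0.04. The median log2 fold change was 0.066 over the 19 and 0.055 without CARS1 and VARS1, beside 0.003 over all genes tested. 15 of the 19 values were above 0, against 50.6% of all genes.

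The 14 mitochondrial log2 fold changes at 500 nM ran from -0.08 for RARS2 to 0.44 for MARS2 with a median of 0.045, 9 were above 0, and 8 of 14 intervals lay within 1.2-fold of DMSO. TARS2, the threonyl enzyme, had 456, 446 and 474 normalized counts in DMSO and 474, 531 and 525 at 500 nM. Its lowest 500 nM library was above its highest DMSO library by less than this rounding shows. The log2 fold change of TARS2 was 0.15 with an interval of 0.01 to 0.30 (limma, adjusted p = 0.154). CARS2, the cysteinyl enzyme, had 0.16 with an interval of -0.00 to 0.33. IARS2, the most abundant of them per length, had -0.02 with an interval of -0.10 to 0.05, and LARS2 -0.01 with an interval of -0.14 to 0.12. The mitochondrial median was 0.074 without replicate 1 at 500 nM and 0.087 without replicate 2, past the cytosolic 0.066, so the order of the medians depended on 1 library. The difference between the lists was not tested. Over both lists, 14 of 33 members had 500 nM libraries that did not overlap those of DMSO, 11 higher and 3 lower, beside 38.5% of all genes.

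**Figure D5:**
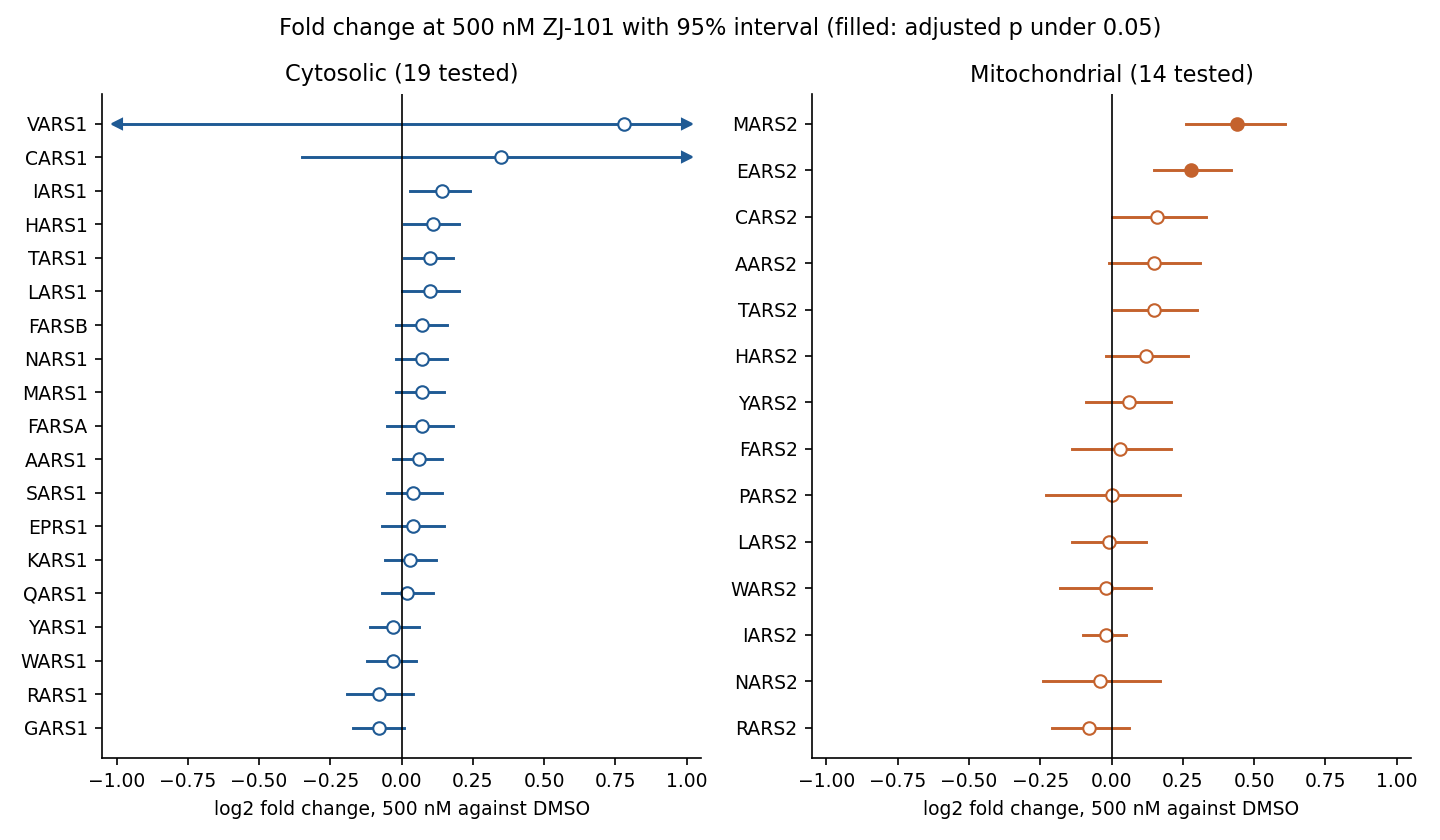
Log2 fold change at 500 nM against DMSO with its 95% interval for the 19 cytosolic (left) and 14 mitochondrial (right) genes tested, with filled points past an adjusted p of 0.05 and arrowheads where an interval leaves the axis. MARS2 at 0.44 and EARS2 at 0.28 are the filled points, and 17 cytosolic intervals lie between -0.19 and 0.24.

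Grouped by other known properties, the lists had medians of 0.041 to 0.068. The 11 cytosolic genes known as ATF4 targets had a median log2 fold change of 0.055 at 500 nM and the 8 others 0.068, with 0 called in either group. The 7 genes of the multisynthetase complex (EPRS1, IARS1, LARS1, MARS1, QARS1, KARS1 and RARS1) had a median of 0.041 and the 12 cytosolic genes outside it 0.067, again with 0 called. Among enzymes of class I, which share one fold of the catalytic domain, 2 of 17 were called (MARS2 and EARS2) and the median was 0.058. Among those of class II, which share the other fold, 0 of 15 were called and the median was 0.066. Over all genes tested, 17.8% were called at this dose, 7.69% higher and 10.1% lower. The difference between the classes was not tested. HARS1 and HARS2, the cytosolic and mitochondrial histidyl enzymes, lie on opposite strands of chromosome 5 with annotated starts 107 bases apart, each start inside the other gene, and their log2 fold changes at 500 nM were 0.11 and 0.12, neither of which passed.

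The promoters of both called genes hold the letters CACGTG, the core of an E-box, just before a RefSeq start, and their sequences are shown because these are the members that rose. This motif was searched after the sequences had been seen, and it reads the same on both strands.
MARS2, chr2:197705347-197705374, plus strand: tgcgcctctcaCACGTGctgtcagaacg
EARS2, chr16:23557349-23557376, minus strand: agggagaagccCACGTGtgctattccat
The letters began 11 bases before the start in MARS2. In EARS2 they began 15 bases before one start and at base 11 counted from another start, inside that transcript. They were present in 4 of the 30 searched members (13.3%), the others being CARS2 and IARS1, in 8.77% of all genes with a window and in 12.4% of those that entered the test. Neither MARS2 nor EARS2 had a match to TGATGNAA or GAANNTTC.

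Among the partners of the synthetases, 2 genes rose at 500 nM, where 7.69% of all genes tested were higher. Of the 3 scaffold proteins of the multisynthetase complex, AIMP2 rose and AIMP1 and EEF1E1 did not pass. AIMP2 had 344, 332 and 345 normalized counts in DMSO and 462, 436 and 428 at 500 nM, without overlap, a log2 fold change of 0.38 with a standard error of 0.07 (limma, adjusted p = 0.00073). Of 8 tested genes for proofreading, transamidation, formylation and peptidyl-tRNA release, 1 rose at 500 nM, PTRH2, a mitochondrial peptidyl-tRNA hydrolase. PTRH2 had 542, 474 and 488 normalized counts in DMSO, 706, 676 and 695 at 50 nM and 710, 731 and 752 at 500 nM, so that every library at 50 and 500 nM was above DMSO. Its log2 fold change at 500 nM was 0.55 with a standard error of 0.06 (limma, adjusted p = 4e-06). MTFMT, which formylates the initiator methionine that MARS2 attaches, had -0.15 with an interval of -0.32 to 0.01. Of 7 tested genes for tRNA export and delivery, 0 passed in limma, edgeR or DESeq2 at 500 nM and 2 were higher at an unadjusted p under 0.05, XPO5 and TUFM, the mitochondrial elongation factor Tu, the latter with a log2 fold change of 0.12.

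The integrated stress response, the pathway through which ATF4 reaches the cytosolic synthetases, was measured in the same libraries and was mixed. At 500 nM, 7.69% of all genes tested were higher and 10.1% lower. ATF4 RNA averaged 3694 ± 144 (SD, n = 3) normalized counts in DMSO and 3683 ± 20.1 at 500 nM, with a log2 fold change of -0.00 and an interval of -0.11 to 0.10. ATF4 is controlled mainly in translation, which was not measured here. Of the 6 transcription factors, 0 rose and 2 fell, CEBPB by 0.72 and CEBPG by 0.16 on the log2 scale (limma, adjusted p = 1.07e-05 and 0.0419). CEBPG, a partner of ATF4, lost its call in 10 of 25 alternatives. Of 7 kinase and phosphatase genes, EIF2AK2, GCN1 and PPP1R15A rose by 0.33, 0.30 and 0.32 and EIF2AK3, which encodes the kinase PERK, fell by 0.43 (limma, adjusted p 0.000548 to 0.0129). GCN1, the partner of the kinase that senses uncharged tRNA, lost its call without replicate 1 of DMSO (adjusted p = 0.0504) or of 500 nM (0.0721), and the kinase itself, EIF2AK4, had 0.11 with an interval of -0.01 to 0.22.

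Of 20 tested targets of the response, 5 rose and 3 fell at 500 nM, beside 7.69% and 10.1% of all genes. All 5 that rose encode amino acid transporters or their subunits. SLC3A2, the heavy chain of several transporters, rose from 2478 ± 118 to 10470 ± 238 normalized counts (SD, n = 3), a log2 fold change of 2.08 (limma, adjusted p = 1.76e-13). Its light chains SLC7A5 and SLC7A11 rose by 0.62 and 0.43, and the 3 that fell were VLDLR, a lipoprotein receptor, DDIT4, an inhibitor of mTORC1, and SLC38A2, a neutral amino acid transporter, by 0.83, 0.49 and 0.18. The enzymes of serine and one-carbon metabolism on the list did not pass, with log2 fold changes of 0.05 for PSAT1, 0.00 for PHGDH, 0.04 for SHMT2 and 0.04 for MTHFD2, and neither did TRIB3 at -0.13 or CHAC1 at -0.27. ASNS, asparagine synthetase, lay between 1.78 and 14.2 normalized counts and was not tested. The reason for these low counts was not examined. The list was chosen with earlier results on these libraries known, so its counts are a description.

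Of 7 mitochondrial chaperone and protease genes, set beside the mitochondrial synthetases, 4 rose at 500 nM and 0 fell. Over all genes tested, 7.69% rose and 10.1% fell. HSPE1 and HSPD1, which form the matrix chaperonin, rose by 0.67 and 0.62 on the log2 scale, HSPA9, the matrix Hsp70, by 0.26, and LONP1, a matrix protease, by 0.16 (limma, adjusted p 1.57e-07 to 0.00814). The protease genes CLPP and CLPX had -0.02 and -0.07 and did not pass. The values for MARS2, 0.44, and EARS2, 0.28, lay between those of LONP1 and HSPD1, and the other 12 mitochondrial synthetase genes tested lay between -0.08 and 0.16.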

How the data were processed

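RNA was measured in 15 libraries of MDA-MB-231 cells, 3 per group. Per the paper's methods and the labels, the authors used HISAT2 to align paired poly-A reads to hg38 and htseq-count for gene counts, which were scaled by DESeq2 size factors (0.916 to 1.13). The deposited signal values are these normalized counts. Strandedness, tool versions and the GENCODE release number are not given in the sources used here. 1 line without a gene was not used. The smallest step in a library gave the worth of 1 read, and 100.0% of values were within 0.001 of a whole read, so depth per library is known. No pair of libraries was a duplicate.

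log2(normalized count + 1) was tested with limma 3.58.1 (R 4.3.3), with a variance trend, for 13561 genes with a mean of at least 10, all 5 groups in 1 fit with 10 residual degrees of freedom. Fold changes are on this scale and understate those of low genes. P-values were adjusted by Benjamini-Hochberg over all genes, with a threshold of 0.05. They rest on the spread between replicate dishes within groups, pooled over all 5 groups and drawn towards the variance trend over all genes. Alternatives were edgeR 4.0.16 and DESeq2 1.42.0 on the recovered reads, other pseudocounts (0.5 and 5), filters and scalings, a replicate block, only the dose and DMSO, and each library left out. The fit was tested on simulated data. Members and lists were chosen with earlier results of these data known, and the lists come from general knowledge. Values in every library are given for members past the threshold at any dose and for their partners of the same amino acid, and of each other list up to 3 rises and 3 falls are named; further genes are named for their value, and LARS1, VARS1 and CARS1 after their values were seen. Positions, MANE lengths and exon overlaps are from GENCODE 44. A copy is an alignment by minimap2 2.31-r1302 of at least 90% of a transcript at 99% identity. Sequences are from RefSeq.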

Additional observations from a re-analysis of the deposited data

How the results depend on the processing

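MARS2 and EARS2 kept their direction and their side of the threshold at 500 nM in 25 of 25 alternatives and by slope in 24 of 24, with largest adjusted p-values of 0.00895 and 0.0268 at 500 nM. The replicate numbers did not pair the libraries: same-numbered libraries had correlations of -0.09 to 0.10 in their deviations, and 7 of 15 libraries correlated best with their own number. With the replicate block, 1 member was called at 5 nM, LARS1, and no other count of members changed. The count at 5 nM was also 1, LARS1, with DESeq2 and with only the dose and DMSO in the fit. The count at 50 nM was 0 without a filter, where 678 of 31620 genes were called, and 2 with only the dose and DMSO. The count at 500 nM was 4 in that last fit, EARS2, MARS2, IARS1 and TARS1. That fit also called more of all genes, 849 of 13549 at 5 nM, 1120 of 13563 at 50 nM and 3295 of 13567 at 500 nM. The main fit called 295, 814 and 2409 of 13561. DESeq2 called 2 members from 5 to 50 nM, EARS2 and VARS1.

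With each library left out in turn, the count of members called ranged from 0 to 1 at 5 nM, from 0 to 2 at 50 nM, from 2 to 3 at 500 nM, from 0 to 2 from 5 to 50 nM, from 0 to 1 from 50 to 500 nM, and from 2 to 4 by slope. The count at 0.5 nM was 0 in all 25 alternatives. The count at 50 nM fell to 0 without any of the 3 DMSO libraries, replicate 2 at 5 nM, replicate 1 or 2 at 50 nM or replicate 3 at 500 nM, and the slope count was 4 without replicate 2 at 50 nM. The median log2 fold change of the mitochondrial genes at 500 nM was 0.042 to 0.087 with each library left out, reaching 0.074 without replicate 1 and 0.087 without replicate 2 of that dose. That of the cytosolic genes was 0.047 to 0.066. The count of all genes called ranged from 424 to 1129 from 5 to 50 nM, from 139 to 630 from 50 to 500 nM and from 1796 to 3098 at 500 nM with each library left out. Neither median changed sign across the alternatives. The fold changes followed through them also kept their sign. These were those of the called members, their partners, and up to 3 rises and 3 falls of each other list. The signs of the other members were not followed. The causes were not tested. Low counts kept SARS2 and VARS2 out of the test, while every other member had 10.7 or more normalized counts in every library.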
